A study of Mus musculus with 19 samples.

Results

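DNA replication genes were followed through the development of Schwann cells, the glia of peripheral nerves, by taking every probe set whose array annotation gave one of 10 symbols. The members were 6 subunits of the replicative helicase (Mcm2 to Mcm7), the helicase loader Cdc6, the sliding clamp Pcna, and both subunits of ribonucleotide reductase (Rrm1 and Rrm2). They were measured by 13 probe sets, of 12422 on the array without controls, and stood for 10 of 8251 genes with a single symbol. Mcm3, Mcm5 and Rrm1 had 2 probe sets each, and all 13 passed the filter on low values.

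The cells came from mice that express green fluorescent protein (GFP) under the promoter of the proteolipid protein gene, which labels crest stem cells first and glia afterwards. GFP-positive cells were isolated by flow cytometry from the trunk at embryonic day 9.5 (E9.5), labelled neural crest stem cells (3 arrays), and from the sciatic nerve, with 3 arrays each for E12, E14, E18 and the day of birth (P0) and 4 arrays for E16. All groups carry the transgene and none was treated, so stage and, between E9.5 and E12, tissue set the groups apart by their labels. The labels also give a lot, a batch number from 1 to 4, and each stage holds arrays of 3 lots. Each sort holds whatever cells expressed the reporter. Fewer cells in S phase and less RNA per cycling cell cannot be told apart in such bulk samples.

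Replication is prepared in G1, when the origin recognition complex, Cdc6 and Cdt1 load the ring of Mcm2 to Mcm7 onto DNA, a step called licensing. In S phase the loaded rings are activated and unwind the DNA, Pcna holds the polymerases on their template, and ribonucleotide reductase makes the deoxynucleotides. Transcription of most of these genes is known to be driven by E2F factors, which are held back by the retinoblastoma family. In nerves, Schwann cell precursors and immature Schwann cells divide before birth and leave the cycle as they begin to myelinate.

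Promoters are shown because motifs known from cell cycle promoters can be read in them. They are those of the 4 genes with the largest change over the whole course, and of Mcm3. Both probe sets of Mcm3 were called within the nerve and neither at the step into it. That difference was not tested, and it varied with the settings described below. The sequences are the 250 bases before the transcription start from RefSeq (GRCm38.p6), 5′ to 3′ on the gene's strand, and capitals mark motif letters on either strand. The motifs searched were E2F (TTTCCCGC, TTTGGCGC, TTTCGCGC or TTTGCCGC), CCAAT, which NF-Y binds, and the GC box GGGCGG.
Mcm5, chr8:75109259-75109508, plus strand: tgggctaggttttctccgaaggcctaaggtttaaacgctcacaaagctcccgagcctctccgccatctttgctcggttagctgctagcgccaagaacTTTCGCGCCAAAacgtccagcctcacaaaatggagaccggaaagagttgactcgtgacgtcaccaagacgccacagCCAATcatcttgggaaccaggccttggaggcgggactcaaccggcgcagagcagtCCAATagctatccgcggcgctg
Mcm7, chr5:138171884-138172133, minus strand: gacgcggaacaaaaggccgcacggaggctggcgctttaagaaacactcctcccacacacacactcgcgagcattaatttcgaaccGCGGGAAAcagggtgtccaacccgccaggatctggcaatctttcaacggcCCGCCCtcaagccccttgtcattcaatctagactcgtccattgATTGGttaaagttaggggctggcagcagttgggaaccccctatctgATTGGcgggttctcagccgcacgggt
Cdc6, chr11:98907901-98908150, plus strand: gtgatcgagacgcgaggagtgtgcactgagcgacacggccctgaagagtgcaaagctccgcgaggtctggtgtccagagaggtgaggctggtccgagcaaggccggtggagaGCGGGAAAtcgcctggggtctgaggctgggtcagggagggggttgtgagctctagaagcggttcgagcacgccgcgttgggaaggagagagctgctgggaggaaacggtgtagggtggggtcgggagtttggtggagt
Mcm3, chr1:20820313-20820562, minus strand: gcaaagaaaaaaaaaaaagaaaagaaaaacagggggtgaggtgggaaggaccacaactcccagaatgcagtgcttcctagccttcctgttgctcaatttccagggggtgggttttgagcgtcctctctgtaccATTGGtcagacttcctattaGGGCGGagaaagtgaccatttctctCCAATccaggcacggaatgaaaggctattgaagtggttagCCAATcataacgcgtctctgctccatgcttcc
Rrm2, chr12:24708004-24708253, plus strand: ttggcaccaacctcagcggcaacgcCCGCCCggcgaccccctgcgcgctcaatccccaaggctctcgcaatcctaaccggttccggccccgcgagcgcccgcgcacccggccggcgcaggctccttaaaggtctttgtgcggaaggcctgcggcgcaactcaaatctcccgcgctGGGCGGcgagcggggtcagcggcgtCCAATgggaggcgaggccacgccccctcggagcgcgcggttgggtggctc
In Mcm5, TTTCGCGC on the plus strand and TTTGGCGC on the minus strand overlap, so that their letters form 1 run from position -153 to -142, and CCAAT lies at -77 to -73 and at -22 to -18. Mcm7 and Cdc6 each held TTTCCCGC on the minus strand, at -165 to -158 and -138 to -131. The table gives Mcm7 a second start, and the 250 bases before that one hold no E2F letters, 1 CCAAT and 2 GC boxes. Mcm3 held 3 CCAAT and 1 GC box in this window, and Rrm2 1 CCAAT and 2 GC boxes, with no E2F letters in either. The table held 9 of the 10 genes, all but Mcm4, with 10 promoters. E2F letters stood in 4 of the 10 promoters, those of Mcm5, Mcm6, Mcm7 (at 1 of its 2 starts) and Cdc6, against 1.86% of all 32851 promoters of the same length, in which members are included. CCAAT stood in 9 of the 10, against 33.8%, and GGGCGG in 7 of the 10, against 32.7%. These matches describe letters and were not tested as binding sites.

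Array medians of the expression index lay between 174 and 207, and lower values were raised to a floor of 68.5 before log2 was taken, which held 22.6 to 27.3% of the probe sets of an array. Sox10 and Erbb3, which mark neural crest and its glia, were above that floor on all 19 arrays. The 3'/5' signal ratio of the GAPDH control, which is higher where the amplified RNA is shorter, was 2.33 to 3.41 on the E9.5 arrays. In the nerve it was 3.18 to 4.53 on E12 arrays, 5.1 to 6.23 on E14 arrays, 3.84 to 9.12 on E16 arrays, 4.11 to 4.83 on E18 arrays and 4.69 to 7.69 on P0 arrays. E16 replicates 1 and 2 and P0 replicate 1 stood apart: the summed index of 9 crest and glial identity genes was 14033, 14222 and 14001 there, and 21956 to 24784 on the other E16 and P0 arrays. Where the number of member calls changes without these 3 arrays, it is given both ways.

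Over all 6 stages, 10 of the 13 member probe sets changed (limma F-test, adjusted p from 1.1e-05 for Cdc6 to 0.02 for Rrm1), where 29% of the 10414 probe sets tested did. In all 10 the mean was highest at E9.5 and lowest at P0. Over the 5 nerve stages alone 7 changed, where 13.1% of all did: Mcm2, both probe sets of Mcm3, Mcm4, Mcm5 by 100156_at, Cdc6 and Pcna, with adjusted p from 0.00051 to 0.049. Mcm2, Mcm3 by both probe sets, and Cdc6 held under each of the 28 alternative settings. Mcm4 held under 23, Pcna under 22 and Mcm5 under 12 (limma adjusted p of Mcm5 up to 0.17). The count of probe sets called over the nerve stages was 4 without E12 replicate 2, without E18 replicate 2, without P0 replicate 1 or without P0 replicate 3, where 8.33 to 13.1% of all probe sets were called. With the GAPDH ratio as a covariate it was 10, where 15.1% of all were. Mcm7 (adjusted p = 0.069), Rrm2 (0.08) and Rrm1 (0.22) did not pass over the nerve stages.

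Mcm2, Mcm4, Mcm7 and Cdc6 shared 1 order of stage means, from high to low E9.5, E12, E16, E14, E18 and P0. Of the 5 neighbours in that order, the arrays were apart for E9.5 and E12 in all 4 genes, for E18 and P0 in Mcm2, Mcm4 and Cdc6, and for E14 and E18 in Mcm2. Mcm3 stepped down in the order of age by both probe sets, with E12 and E14 apart as well as E9.5 and E12. Mcm5 by 100156_at, Rrm1 by 100612_at and Rrm2 had E16 in place of E12 behind E9.5, and only E9.5 stood apart from its neighbour, in Mcm5 and Rrm2. Pcna was the member with E12 low, in the order E9.5, E16, E18, E14, E12 and P0, and E9.5 alone was apart from its neighbour. Of all probe sets, 14.5% lay wholly lower at E12 than at E9.5, 13.7% at E14 than at E12, and 3.89% at P0 than at E18. The shares for E14 with E18 and for E9.5 with E16 were not computed.

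**Figure D1:**
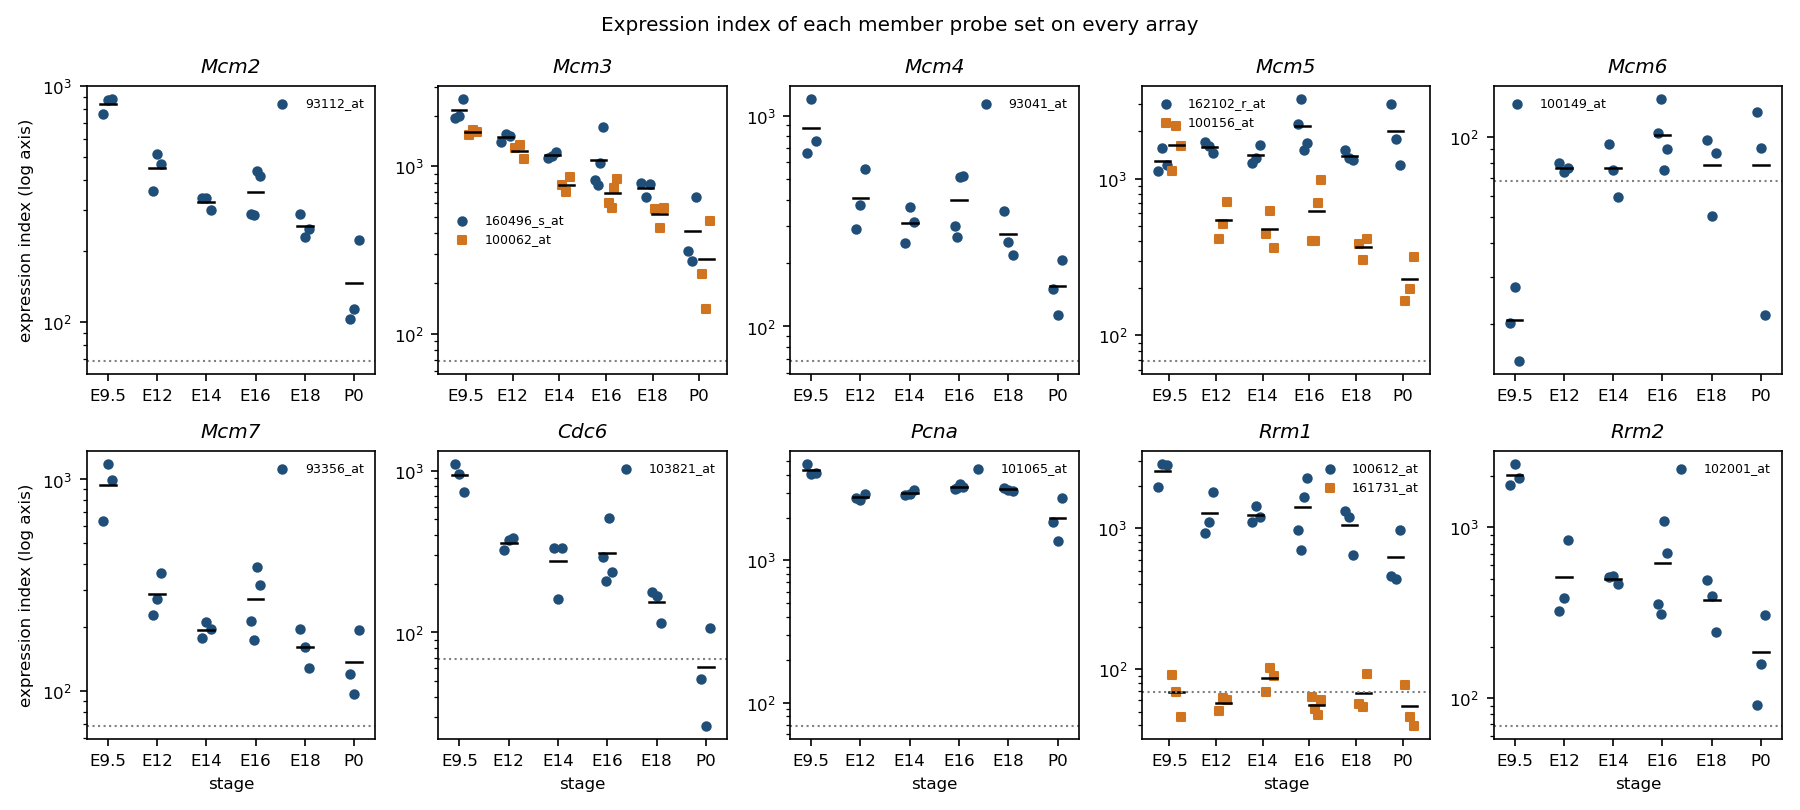
Expression index of each member probe set on every array (vertical log axis, arbitrary intensity units), with arrays as points, stage means as short black lines and the floor of 68.5 as a dotted line. In 10 of the 13 probe sets the E9.5 mean is highest and the P0 mean lowest, and the exceptions are Mcm5 162102_r_at, Mcm6 100149_at and Rrm1 161731_at.

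E12 nerve cells were compared with E9.5 trunk crest cells to ask how replication genes differ between the stem cells and the first nerve glia. The helicase subunits Mcm2, Mcm4, Mcm5 and Mcm7, the loader Cdc6, the clamp Pcna and the reductase subunit Rrm2 fell, by 1.55-fold (Pcna) to 4.27-fold (Rrm2). This was 7 of 13 probe sets, where 4.41% of all probe sets were called lower and 14.1% were called in either direction. The median change over the 13 was -0.92 on the log2 scale, against 0.01 over all probe sets tested. All E12 arrays lay below all E9.5 arrays in 10 of the 13, where 14.5% of all probe sets did so.

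Mcm7, a subunit of the helicase core, had an expression index of 639, 1184 and 995 on the E9.5 arrays and of 230, 274 and 362 at E12. No array of one stage reached the other, and the fitted change was -1.68 on the log2 scale (standard error, SE, 0.32, adjusted p = 0.0014). By its probe set 100156_at, Mcm5, which lies at the gate of the ring, had indices of 1123, 2158 and 1607 at E9.5 and of 409, 513 and 705 at E12. Its change was -1.57 (SE 0.36, adjusted p = 0.006), again with no overlap. Mcm4, a core subunit, read 668, 1197 and 754 at E9.5 and 289, 375 and 560 at E12. Its highest E12 array was close to its lowest E9.5 array, and the change was -1.1 (SE 0.33, adjusted p = 0.033). The regulatory subunit Mcm2 was at 767, 876 and 883 and then at 359, 519 and 471, with a change of -0.92 (SE 0.25, adjusted p = 0.021). Both stages of Mcm2 were tight against the gap between them.

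Mcm3, a further subunit of the ring, did not pass this comparison by either of its probe sets. Probe set 160496_s_at had indices of 1955, 2006 and 2523 at E9.5 and of 1405, 1569 and 1515 at E12, a change of -0.52 (SE 0.29, adjusted p = 0.3). For 100062_at the indices were 1548, 1653 and 1602 and then 1279, 1344 and 1106, a change of -0.37 (SE 0.3, adjusted p = 0.51). In both probe sets the stages did not overlap, while the unadjusted p of the limma fit was 0.095 for 160496_s_at and 0.24 for 100062_at.

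Cdc6, the ATPase that helps to load the helicase, had indices of 1103, 960 and 744 at E9.5 and of 322, 373 and 385 at E12. Its change was -1.36 (SE 0.33, adjusted p = 0.0098). The clamp Pcna had indices of 4766, 4050 and 4114 and then of 2741, 2672 and 2938. With a change of -0.63 (SE 0.18, adjusted p = 0.028), it fell by less than the other genes called here.

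Rrm2, the reductase subunit whose level follows S phase, had indices of 1761, 2348 and 1950 at E9.5 and of 321, 385 and 836 at E12. The change of -2.1 (SE 0.48, adjusted p = 0.0068) was the largest fall among the members, although E12 replicate 4 read above the other E12 arrays. Rrm1, the large catalytic subunit, had indices of 1976, 2867 and 2799 at E9.5 and of 923, 1113 and 1813 at E12 by probe set 100612_at. E12 replicate 4 again was the highest E12 array, and the change of -1.03 (SE 0.42) did not pass (adjusted p = 0.12).

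Mcm5, Mcm7, Cdc6 and Rrm2 were called under each of the 28 alternative settings, and Mcm2 under 24, Mcm4 under 22 and Pcna under 22. Without E9.5 replicate 2, without E9.5 replicate 3 or without E12 replicate 1, 4 of the 7 were called, where 9.34 to 11.2% of all probe sets were. The GAPDH ratio was higher at E12 than at E9.5 on average, and with it as a covariate 4 were called (17.6% of all probe sets) and the members' median change was -0.53. Within lots, the members' median change was -1.09 in lot 1 and -0.76 in lot 2, with 1 array per stage and lot. Of 9 crest and glial identity genes 4 rose (Ednrb, Erbb3, Fabp7 and Gfra3) and Pax3 fell at E12 against E9.5. Their summed index was 7175 to 8339 on E9.5 arrays and 18271 to 22788 on E12 arrays. Genes listed as markers of other cells also moved in the same comparison. Whether their RNA came from such cells was not tested. Sums here and below cover all listed genes on the array, also those not tested (13 macrophage, 11 neural tube and neuron, 10 somite and 7 endothelial genes). Of 11 macrophage markers tested 6 rose and 1 fell, and the summed index was 1511 to 1786 on E9.5 arrays and 2574 to 5097 on E12 arrays. Of 8 erythroid markers 3 rose (Hba-a1, Hba-x and Hbb-y), with a summed index of 2382 to 2560 and then of 3537 to 10799. Of 12 fibroblast markers 4 rose (Col1a2, Col3a1, Fbln2 and Postn) and Twist1 fell, with sums of 2521 to 3403 and of 12822 to 15397. Of 7 neural tube and neuron markers Sox2 rose and Neurog2 fell, with sums of 4974 to 5547 and of 5684 to 6573. None of 6 somite markers and none of 6 endothelial markers was called by limma, and 0 of either had an unadjusted p under 0.05, with sums of 747 to 1278 and 817 to 893 for somites, and 1330 to 1607 and 1672 to 1994 for endothelium. The macrophage genes Lyz2 and Fcer1g and the neuronal genes Pax6 and Isl1 were at the floor on all 19 arrays. Their part in the members' change was not tested.

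**Figure D2:**
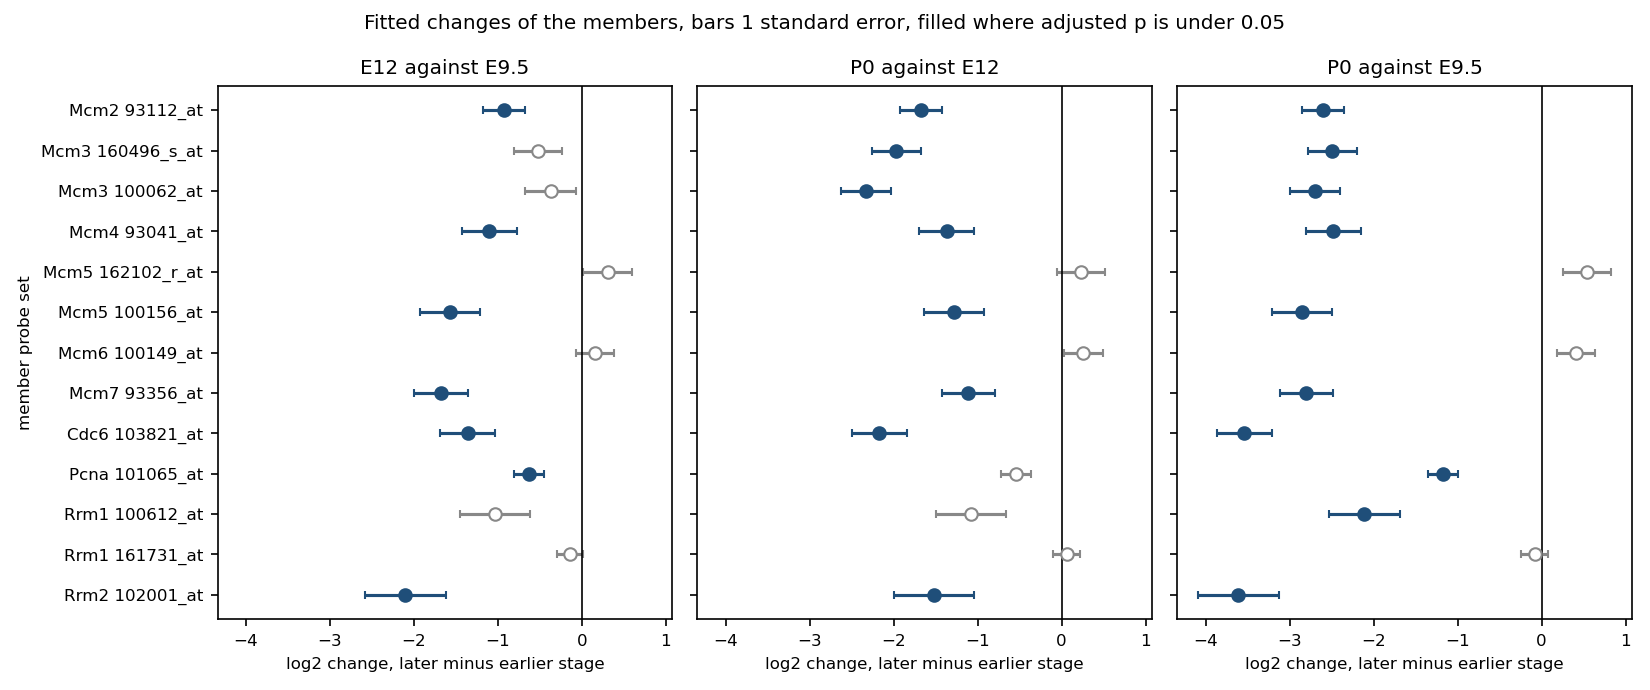
Fitted log2 change of each member probe set (horizontal axis, later minus earlier stage) for E12 against E9.5, P0 against E12 and P0 against E9.5. Points are limma estimates, bars 1 SE, and filled points have an adjusted p under 0.05, which are 7, 8 and 10 of the 13.

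From E12 to E18 no member was called between neighbouring stages of the nerve, which does not show that levels were equal. For E14 against E12, 0 of 13 were called by limma (2.09% of all probe sets) and 1, Mcm3 by 100062_at, had an unadjusted p under 0.05 (10.9% of all). For E16 against E14, 0 were called (1.69% of all) and 0 had an unadjusted p under 0.05 (11.2% of all). For E18 against E16, 0 were called, where 0.0768% of all were, and 2, Cdc6 and Mcm7, had an unadjusted p under 0.05 (8.07% of all). With array weights the counts called were 1, 1 and 2, where 11.3%, 8.76% and 11.1% of all probe sets were called. The members' median changes were -0.19, 0.15 and -0.48 on the log2 scale in turn, and 8, 3 and 12 of the 13 changes were below 0.

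Cdc6 had indices of 333, 160 and 332 at E14, of 293, 209, 509 and 238 at E16 and of 177, 169 and 114 at E18. Each E18 array lay below each E16 array, as in 2 of the 13 probe sets and 4.53% of all, with a change of -0.96 (SE 0.31, adjusted p = 0.46). Pcna varied little in these stages, at 2864, 2939 and 3101 at E14, 3184, 3246, 3447 and 3278 at E16, and 3221, 3144 and 3096 at E18. The arrays of those 3 stages ran from 2864 to 3447, and the E9.5 arrays from 4050 to 4766. Mcm3, by 160496_s_at, had indices of 1120, 1149 and 1215 at E14, of 828, 777, 1050 and 1722 at E16, and of 793, 657 and 788 at E18. Its means stepped down from stage to stage, while the E16 arrays spanned both neighbours.

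The E16 arrays fell into a low and a high pair for several members. Rrm2 had indices of 354, 309, 1081 and 709 on E16 replicates 1 to 4, against 508, 516 and 463 at E14 and 489, 396 and 243 at E18. Rrm1 had indices of 981, 706, 1664 and 2292 there, against 1106, 1447 and 1197 at E14 and 1328, 1209 and 649 at E18. Mcm7 had indices of 214, 175, 384 and 319 there, against 178, 212 and 196 at E14 and 196, 162 and 129 at E18. In all 3 genes replicates 3 and 4 were the high E16 arrays and replicates 1 and 2 the low ones. The median of the 13 probe sets, each taken as its log2 deviation from its mean over the 19 arrays, was -0.24 and -0.33 on replicates 1 and 2 and 0.37 and 0.31 on replicates 3 and 4. The GAPDH ratio was 5.8 and 9.12 on the former and 4.26 and 3.84 on the latter. Replicates 1 and 2 were of lot 1, replicate 3 of lot 3 and replicate 4 of lot 4. The median change for E16 against E14 was -0.15 within lot 1 and 0.47 within lot 3, and that for E18 against E16 was 0.00 and -0.77. Without E16 replicates 1 and 2 and P0 replicate 1, the members' median change was 0.41 for E16 against E14 and -0.86 for E18 against E16.

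**Figure D3:**
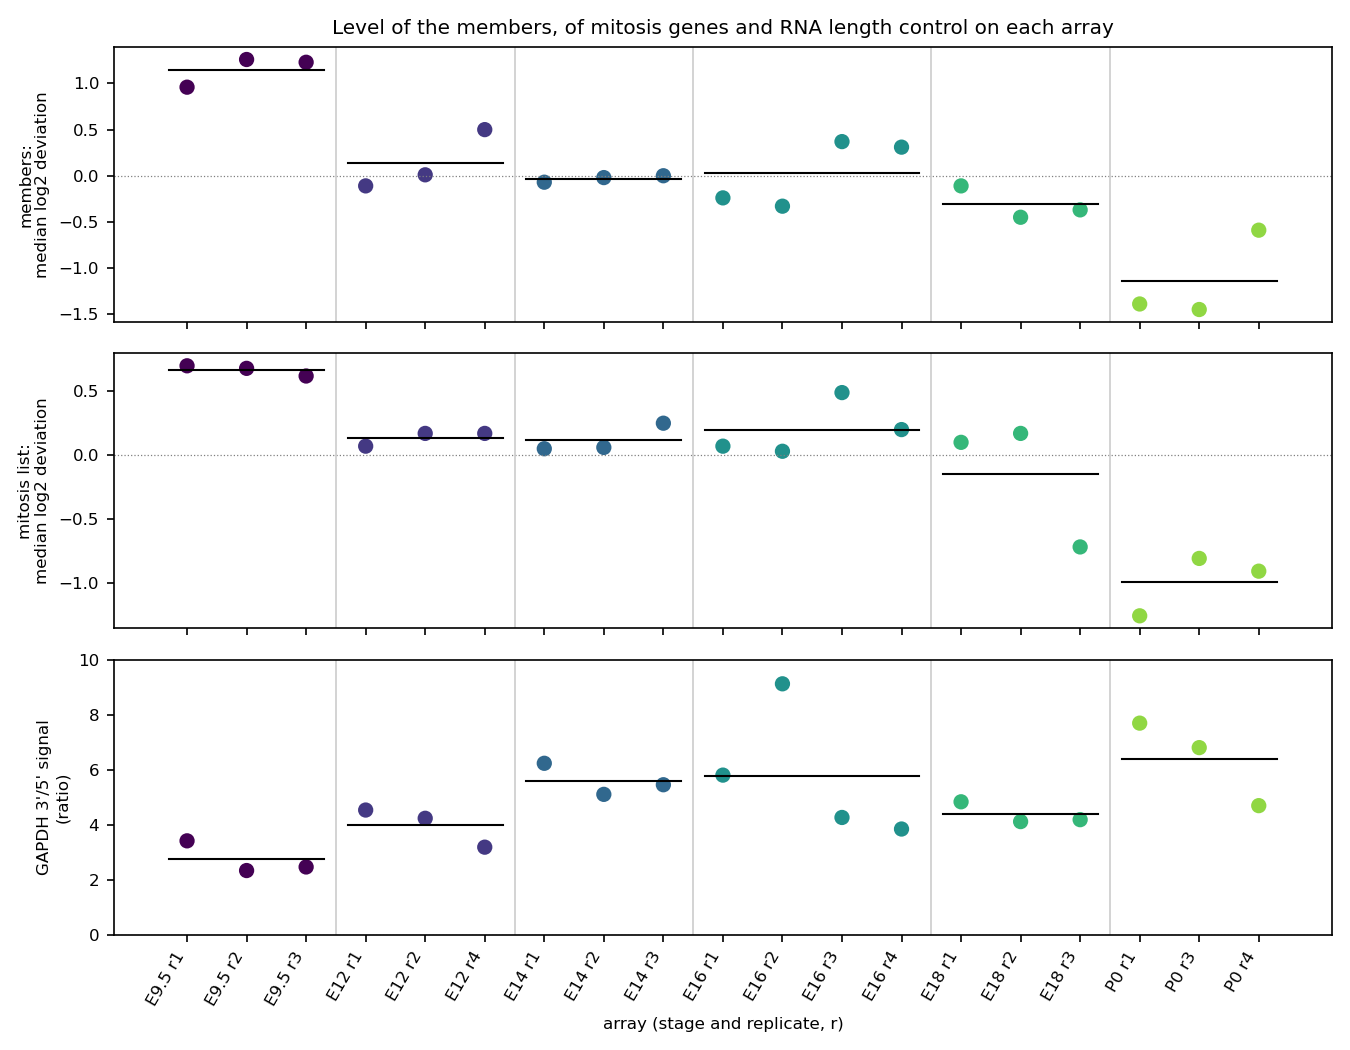
For each of the 19 arrays (horizontal axis, stage and replicate), the median log2 deviation of the 13 member probe sets, that of 16 mitosis genes, and the GAPDH 3'/5' signal ratio. Points are arrays and lines stage means; member values lie from 0.96 to 1.26 at E9.5 and from -1.45 to -0.59 at P0, and the GAPDH ratio is highest, 9.12, on E16 replicate 2.

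Newborn nerve cells were compared with those of E18 to ask what changed around birth. No member was called (0 of 13 by limma, where 0.125% of all probe sets were called), and 7 had an unadjusted p under 0.05, where 11.7% of all did. The lowest adjusted p was that of Pcna, 0.13. All P0 arrays lay below all E18 arrays in 5 of the 13 (Mcm2, Mcm3 by 160496_s_at, Mcm4, Cdc6 and Pcna), where 3.89% of all probe sets did so, and the members' median change was -0.80 against 0.01 over all.

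Pcna had indices of 1867, 1364 and 2757 at P0, all below its E18 arrays, a change of -0.72 (SE 0.18). Mcm2 had indices of 289, 231 and 248 at E18 and of 103, 114 and 224 at P0, a change of -0.88 (SE 0.25, adjusted p = 0.2). In both genes P0 replicate 4 lay near the E18 arrays and replicates 1 and 3 far below. Without P0 replicate 4, 4 of the 13 were called (Mcm2, both probe sets of Mcm3, and Pcna), where 6.87% of all probe sets were. With array weights 7 of the 13 were called, where 8.31% of all were. The median deviation of the members was -1.39 on P0 replicate 1, -1.45 on replicate 3 and -0.59 on replicate 4, and the GAPDH ratio was 7.69, 6.8 and 4.69 on them. With that ratio as a covariate the median change for P0 against E18 was -0.35. Leaving out E16 replicates 1 and 2 and P0 replicate 1 gave a median change of -0.67.

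P0 was compared with E12 for the whole course within the nerve, and 8 of 13 probe sets for 7 genes fell: Mcm2, Mcm3 by both probe sets, Mcm4, Mcm5, Mcm7, Cdc6 and Rrm2. Of all probe sets 11.8% were called lower and 16.4% in either direction. The members' median change was -1.28 on the log2 scale, against -0.02 over all, and the arrays of the 2 stages did not overlap in 8 of the 13, where 15.7% of all probe sets lay wholly lower at P0. This comparison shares its E12 arrays with that of E12 against E9.5.

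Mcm3 had indices of 228, 140 and 472 at P0 by 100062_at, a change of -2.33 (SE 0.3, adjusted p = 5.3e-05) or 5.02-fold lower than at E12. By 160496_s_at the P0 indices were 313, 273 and 654, a change of -1.97 (SE 0.29, adjusted p = 0.00022). In the main fit Mcm3 was thus called within the nerve by both probe sets, and by neither at the step into it. At that step 160496_s_at was called under 4 of the 28 alternatives and 100062_at under none. The difference between the steps was not tested. Cdc6 had indices of 51.2, 26.4 and 107 at P0, of which 2 lay under the floor, so that it was at least 4.51-fold lower than at E12 (log2 change -2.17, SE 0.33, adjusted p = 0.00025). Against its E12 arrays Mcm2 was 3.21-fold lower (-1.68, SE 0.25, adjusted p = 0.00023).

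Mcm4 had indices of 150, 113 and 206 at P0 and was 2.59-fold lower than at E12 (-1.37, SE 0.33, adjusted p = 0.0085). Mcm5 by 100156_at, at 165, 199 and 318, was 2.42-fold lower (-1.28, SE 0.36, adjusted p = 0.021). Mcm7, at 120, 96.9 and 194, was 2.16-fold lower (-1.11, SE 0.32, adjusted p = 0.023). In all 3 the highest P0 array was replicate 4, and it lay below the lowest E12 array. Rrm2 had indices of 91.3, 157 and 308 at P0 and was 2.86-fold lower (-1.52, SE 0.48, adjusted p = 0.041). Rrm1, at 457, 437 and 980, overlapped E12 and was not called (-1.08, SE 0.42, adjusted p = 0.089). Pcna also overlapped E12 and was not called (-0.54, SE 0.18, adjusted p = 0.053).

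Mcm2, both probe sets of Mcm3, and Cdc6 were called under each of the 28 alternatives, Mcm4 under 27, Mcm5 and Mcm7 under 23 each, and Rrm2 under 13. Without E12 replicate 2, without E12 replicate 4, without P0 replicate 1 or without P0 replicate 3, 5 probe sets were called (10.2 to 12.8% of all), and without P0 replicate 4, 10 were (26.8% of all). With the GAPDH ratio as a covariate 4 were called (Mcm2, Mcm3 by both, and Cdc6, where 11.6% of all were) and the members' median change was -0.54. Without E16 replicates 1 and 2 and P0 replicate 1, 7 were called (13.4% of all), all but Rrm2. Within lots the members' median change was -1.01 in lot 1 and -1.07 in lot 4. Of 11 macrophage markers 4 fell and none rose between these stages, to a summed index of 1534 to 1941 at P0, and of 8 erythroid markers 2 fell, to 2316 to 2873. Of 12 fibroblast markers 3 collagen genes rose, to a sum of 22972 to 30818. Their part in the members' change was not tested.

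Newborn nerve cells against E9.5 crest cells gave the most member calls: 10 of the 13 probe sets fell, for 9 of the 10 genes, where 15.9% of all probe sets were called lower and 28% in either direction. Rrm2 was 12.2-fold lower (log2 change -3.61, SE 0.48, adjusted p = 3.2e-05), and Cdc6 at least 11.6-fold (-3.54, SE 0.33, adjusted p = 7.6e-07). The helicase subunits lay close together, at 7.2-fold lower for Mcm5, 6.95-fold for Mcm7, 6.49-fold and 5.62-fold for the 2 probe sets of Mcm3, 6.07-fold for Mcm2 and 5.57-fold for Mcm4. Rrm1 was 4.33-fold lower (-2.11, SE 0.42, adjusted p = 0.0011) and Pcna 2.24-fold (-1.17, SE 0.18, adjusted p = 0.00014). The P0 arrays lay below the E9.5 arrays in each of the 10 called probe sets, where 17.4% of all probe sets did so. Each was called under all 28 alternatives except Rrm1, called under 27. With the GAPDH ratio as a covariate, 9 were called, where 18% of all probe sets were. The median change of the 13 was then -1.50 in place of -2.49, and all 13 changes were below 0. Without P0 replicate 4, 12 were called, where 33% of all probe sets were. The added calls, Mcm6 and Mcm5 by 162102_r_at, were higher at P0, by 0.62 and 0.85 on the log2 scale. Of 12 fibroblast markers 6 rose and Twist1 fell, with sums of 2521 to 3403 at E9.5 and of 22972 to 30818 at P0. Of 9 crest and glial identity genes 3 rose and 3 fell, with sums of 7175 to 8339 and of 14001 to 24784. Of the macrophage markers Cd68 rose, and the sums were 1511 to 1786 and 1534 to 1941. Of the neural tube and neuron markers Sox2 rose and Neurog2 fell, with sums of 4974 to 5547 and of 4926 to 7607. No erythroid, somite or endothelial marker was called by limma, and 1, 0 and 0 of them had an unadjusted p under 0.05. Their part in the members' change was not tested.

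The 3 other probe sets did not follow this course. Mcm5 by 162102_r_at, whose suffix marks a set that did not meet all probe selection rules, had indices of 1111, 1573 and 1228 at E9.5 and of 1714, 1618 and 1467 at E12. E14 arrays read 1250, 1363 and 1645, E16 arrays 2242, 3216, 1518 and 1684, E18 arrays 1519, 1361 and 1308, and P0 arrays 3012, 1794 and 1223. Its high arrays were E16 replicates 1 and 2 and P0 replicate 1, which stood apart above, and it was not called over the 6 stages (adjusted p = 0.27). Over the 19 arrays its log2 values correlated at r = -0.43 with those of the other Mcm5 probe set. Because it has the higher mean, a rule of 1 probe set per gene takes it for Mcm5, and with that rule 6 genes in place of 7 were called lower at E12 against E9.5.

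Mcm6, also a subunit of the ring, had indices of 20.1, 27.4 and 14.5 at E9.5, all under the floor, and of 79.5, 73.5 and 76.1 at E12, just above it. Its later arrays ran from 21.6 to 138. It was not called in any comparison of 2 stages. With the floor at the 10th percentile of all values it was called higher than at E9.5 both at E12 and at P0, without P0 replicate 4 it was called higher at P0 than at E9.5, and with array weights it was called lower at E18 than at E16. Its level is too near the floor to place it beside the other subunits. Rrm1 by 161731_at had indices of 39.5 to 102 over all 19 arrays and was at or under the floor on most of them.

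The 10 probe sets that changed over the stages varied together from array to array. In the 45 pairs among them, the Pearson r of log2 values over the 19 arrays ran from 0.74 (Mcm7 with Pcna) to 0.97 (the 2 probe sets of Mcm3), with a median of 0.88. These points share stage and library. After stage means were removed, r ran from 0.02 (Mcm5 with Cdc6) to 0.93 (Mcm4 with Mcm7), with a median of 0.63. Mcm7 and Rrm1 had r = 0.91 within stages, while Cdc6 had r = 0.02 with Mcm5, 0.18 and 0.37 with the 2 probe sets of Mcm3, and at most 0.57 (Rrm2) with any other of the 10. The sets were chosen here by their call over the stages, so these values are a description.

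**Figure D4:**
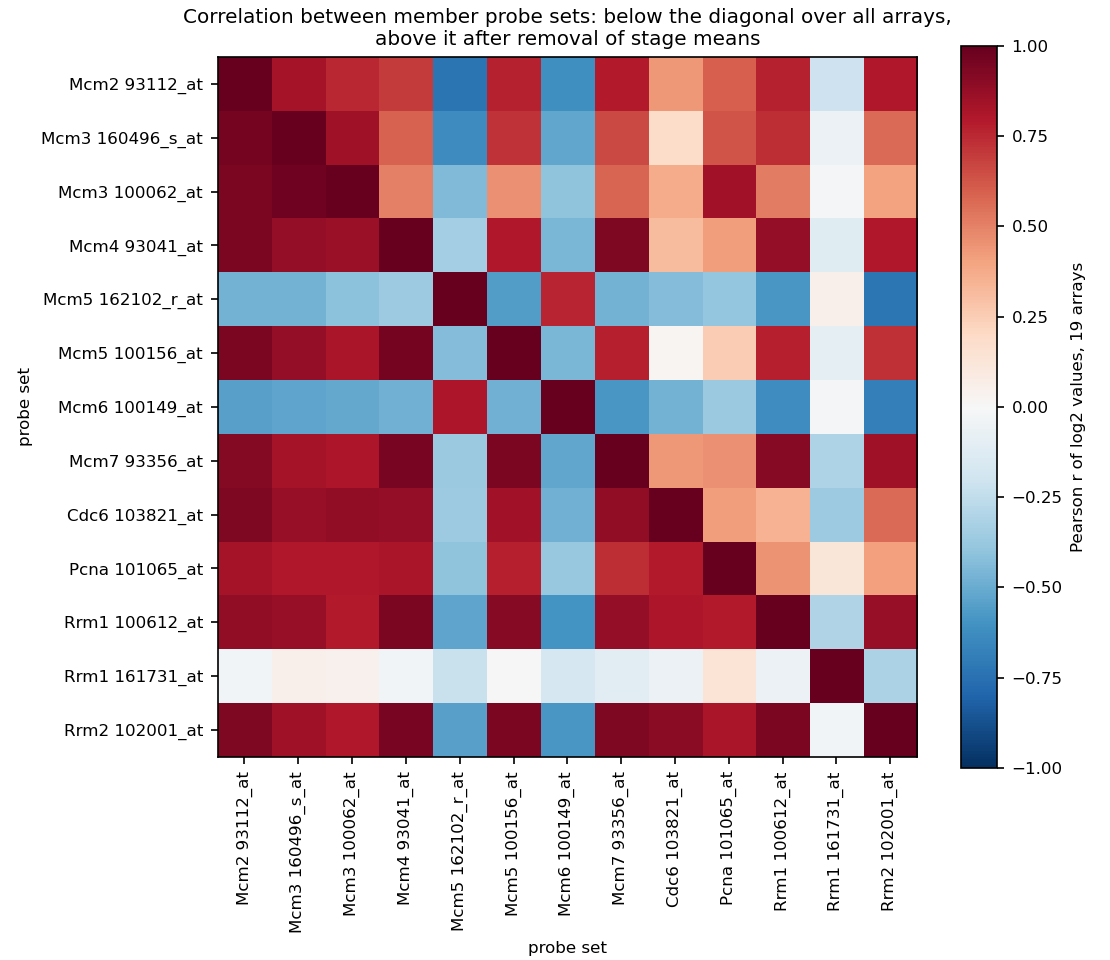
Pearson r between log2 values of the 13 member probe sets over 19 arrays, below the diagonal over all arrays and above it after removal of stage means (colour scale from -1, blue, to 1, red). The 10 sets that changed over the stages form a red block of 0.74 to 0.97 below the diagonal, and Mcm5 162102_r_at and Mcm6 100149_at run against it.

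Other genes of replication were taken from lists with 1 probe set per gene. Their counts stand beside the shares of all probe sets called lower, 4.41% at E12 against E9.5, 11.8% at P0 against E12 and 15.9% at P0 against E9.5. Of 11 origin licensing and firing genes tested, none was called at E12 against E9.5 (limma, median change -0.14), and 2 had an unadjusted p under 0.05. Cdt1, the partner of Cdc6 in loading, had mean indices of 1144 ± 182 (SD, n = 3) at E9.5 and 1030 ± 39.3 at E12, and Orc4, of the origin recognition complex, 1105 ± 102 and 1117 ± 120. At P0 against E12, 5 of the 11 fell, with a median change of -0.47. The Cdt1 inhibitor Gmnn went from 794 ± 91.4 at E12 to 177 ± 75.5 at P0, or 4.74-fold lower (adjusted p = 3.1e-05). Topbp1, which helps to start forks, was 4.06-fold lower (adjusted p = 0.0038), the origin-firing kinase Cdc7 3.31-fold (adjusted p = 0.0019) and Orc4 2.41-fold (adjusted p = 0.0056), while Orc6 was the fifth. At P0 against E9.5, 8 fell and Orc5 rose 1.57-fold (adjusted p = 0.031).

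Genes of the fork moved at both steps. Of 27 polymerase, clamp loader and ligation genes, 7 fell at E12 against E9.5 and none rose, with a median change of -0.41. The primase subunit Prim1 had indices of 173, 233 and 164 at E9.5 and of 36.2, 41.9 and 57.4 at E12, all of the latter under the floor, so that it was at least 2.73-fold lower (adjusted p = 0.00029). The nuclease Dna2 was 2.44-fold lower (adjusted p = 0.02), the clamp loader subunit Rfc4 2.28-fold (adjusted p = 0.043) and Wdhd1, which ties polymerase alpha to the fork, 2.08-fold (adjusted p = 0.0025). At P0 against E12, 11 of the 27 fell, with a median of -0.57. Pola1, the catalytic subunit of polymerase alpha, went from 502 ± 25.2 to 134 ± 54.6, or 3.95-fold lower (adjusted p = 0.00011). Dna2 was at least 4.26-fold lower (adjusted p = 0.00063), the flap nuclease Fen1 3.44-fold by its fitted log2 change, with 1 of its 3 P0 arrays under the floor (adjusted p = 0.012), and the single-strand binding subunit Rpa2 3.41-fold (adjusted p = 0.0015). At P0 against E9.5, 19 of the 27 fell.

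Of 10 genes of deoxynucleotide supply beside the reductase, 2 fell at E12 against E9.5 (median -0.11). The folate enzyme Shmt1 went from 544 ± 110 to 163 ± 31.7, or 3.33-fold lower (adjusted p = 2.2e-05), and thymidine kinase Tk1 was 1.8-fold lower (adjusted p = 0.014). At P0 against E12, 4 fell (median -0.34): deoxycytidine kinase Dck 3.74-fold (adjusted p = 0.0037), thymidylate kinase Dtymk 2.44-fold (adjusted p = 0.0082), Nme1 2.32-fold (adjusted p = 0.049) and Shmt1 at least 1.99-fold (adjusted p = 0.0036). Rrm2b, the reductase subunit known from DNA repair and resting cells, rose at P0 against E9.5 by at least 1.96-fold (adjusted p = 0.018). Its indices were 48.1, 88.8 and 58.5 at E9.5 and 230, 107 and 127 at P0, with no overlap, which is the opposite direction to Rrm2.

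Among purine and pyrimidine synthesis genes the counts differed between the steps, a difference that was not tested. At E12 against E9.5, 5 of 10 fell, with a median of -0.94. Prps1, which makes the activated ribose, went from 1203 ± 108 to 407 ± 36.4, or 2.96-fold lower (adjusted p = 0.00073). Cad, the enzyme that starts pyrimidine synthesis, was 2.8-fold lower (adjusted p = 0.031), Umps, which completes the first pyrimidine nucleotide, 2.28-fold (adjusted p = 0.0022) and the purine enzyme Gart 2.03-fold (adjusted p = 0.006). At P0 against E12, 1 of the 10 fell, Umps (1.67-fold, adjusted p = 0.04), where the median was -0.41 and 11.8% of all probe sets were called lower. There 8 of the 10 changes were below 0, and 3 had an unadjusted p under 0.05 by limma, where 29.7% of all did. At P0 against E9.5, 7 of the 10 fell, with a median of -1.54, where 15.9% of all probe sets were called lower.

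**Figure D5:**
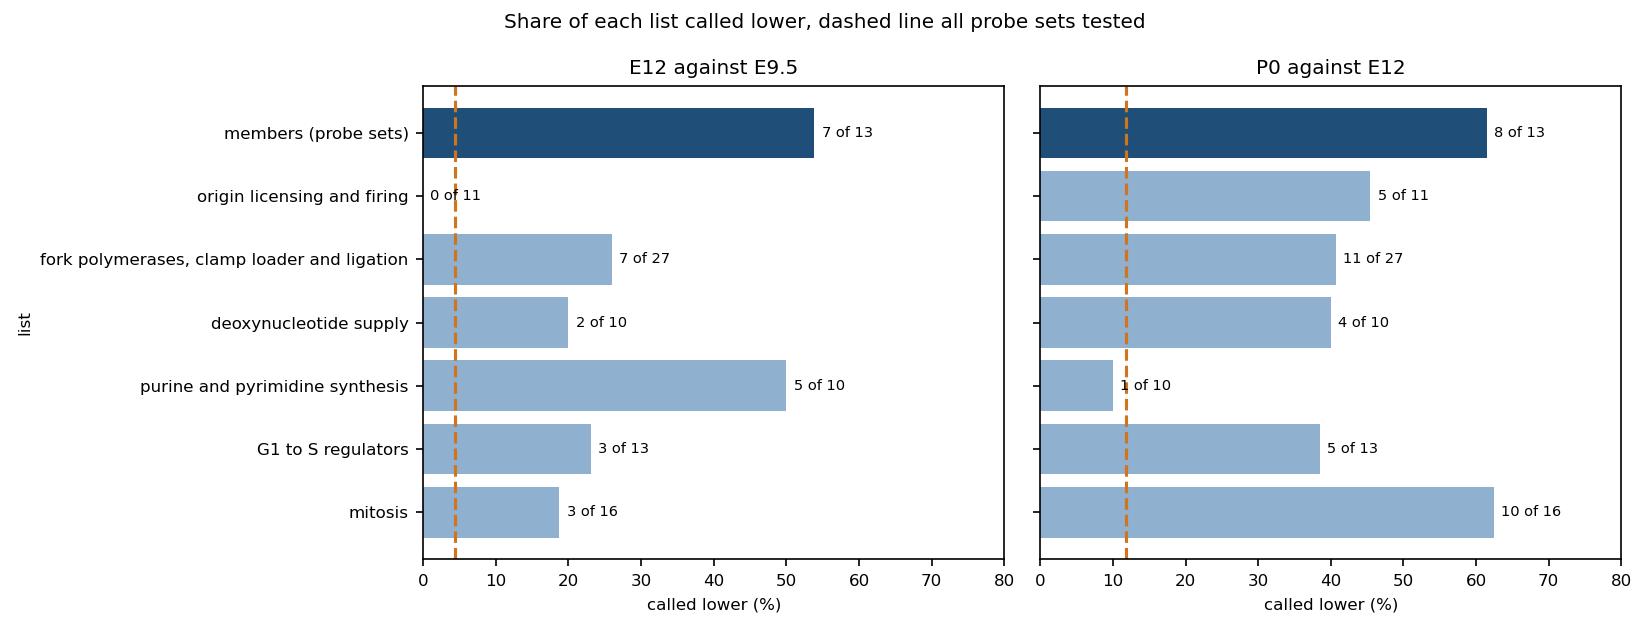
Share called lower (horizontal axis, percent) of the 13 member probe sets and of genes in 6 lists, for E12 against E9.5 and P0 against E12, with counts beside the bars. Members count every probe set, and lists the 1 probe set per gene with the highest mean. By the lists' rule the members were 6 of 10 in both comparisons. The dashed line is the share of all probe sets tested, 4.41% and 11.8%; origin licensing and firing stands at 0 of 11 and then 5 of 11, and purine and pyrimidine synthesis at 5 of 10 and then 1 of 10.

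Of 13 regulators of entry into S phase, 3 fell at E12 against E9.5: Mycn (3.96-fold, adjusted p = 0.019), the phosphatase Cdc25a (2.51-fold, adjusted p = 0.0086) and the retinoblastoma gene Rb1 (2.24-fold, adjusted p = 0.027). The list thus holds both promoters and brakes of the cycle. At P0 against E12, 5 fell, among them the Rb relative Rbl1 (2.64-fold, adjusted p = 0.0038), the kinase Cdk2 (2.58-fold, adjusted p = 0.0058) and E2f5 (2.49-fold, adjusted p = 0.0022). Myc rose at P0 against E9.5, by at least 3.87-fold (adjusted p = 0.047), and this call held under 9 of the 28 alternatives.

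Mitosis genes were set beside the members as a second reading of division. Of 16, 3 fell at E12 against E9.5 (Aurka, Mad2l1 and Plk1), where 4.41% of all probe sets did, and 10 at P0 against E12, where 11.8% did. At P0 against E18, where 0.125% of all were called in either direction, 1 fell, Ccnb2, from 1260, 1273 and 1021 to 458, 641 and 704 (1.99-fold lower, adjusted p = 0.027). This call held under 19 of the 28 alternatives, with adjusted p from 0.0016 to 0.17. It was lost among others without E18 replicate 1 or 2 and without P0 replicate 1 or 3. Leaving out E16 replicates 1 and 2 and P0 replicate 1 together also lost it (log2 change -0.81, limma adjusted p = 0.12). On E18 replicate 3 the median deviation of the mitosis genes was -0.72, against 0.10 and 0.17 on replicates 1 and 2. The members' median did not set that array apart, at -0.37 against -0.11 and -0.45. Among their probe sets called over the stages, Rrm1 read 649 there against 1328 and 1209, and Rrm2 243 against 489 and 396. Cdc6 read 114 against 177 and 169, and Mcm4, Mcm7 and Pcna were also lowest on that array. Mcm2, Mcm3 by both probe sets, and Mcm5 were not. On P0 replicate 4 the members were at -0.59 against -1.39 and -1.45, whereas the mitosis genes were at -0.91 against -1.26 and -0.81.

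The genes most like the members were taken by the Pearson r, over the 19 arrays, of their log2 value with the mean standardised profile of the 10 members, among 7403 genes that are no members. The leading 10 were Gga2 and Pclaf (both r = 0.944), Bub1 (0.929), Tomm70a, Fignl1, Trip13, Cdca8, Asnsd1, Kpnb1 and Nap1l1 (0.912). Pclaf, a partner of Pcna, had a mean index of 1482 ± 132 at E9.5 and of 886 ± 29.8 at E12, stood between 671 ± 130 (E18) and 778 ± 114 (E16) in the next 3 stages, and reached 346 ± 96.5 at P0. Gga2, a protein of vesicle transport, went from 1385 ± 178 at E9.5 through 719 ± 88.3 at E12 to 193 ± 70.9 at P0. With Mcm5 given by its other probe set, 6 of the 10 were shared and Nap1l1, a histone chaperone, led at 0.953.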

How the data were processed

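RNA of sorted cells was measured on 19 Affymetrix mouse arrays, with target made by 2 rounds of in vitro transcription. Per the labels' protocols, the authors scanned with MAS 5.0, normalized with the smoothing spline of dChip and computed a model-based expression index, with probe sensitivities from 18 arrays. The deposited values are such indices, a linear intensity for each probe set and array. The E9.5 samples 2 and 3 share that protocol only through the other samples. Probe sets were named by the array's annotation, and 66 control probe sets were left out.

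Values under the 25th percentile (68.5) were raised to it and log2 was taken. Probe sets above it on at least 3 arrays (10414) were tested with limma 3.58.1 (R 4.3.3), with 1 mean per stage, 13 residual degrees of freedom and 2-sided Benjamini-Hochberg adjusted p at a threshold of 0.05 within each of 9 tests. The fit was tested on simulated data. A fold is 2 to the power of the fitted log2 change, a ratio of geometric means of floored values, and is written "at least" where arrays of the lower stage lie at the floor, except for Fen1, whose ratio of plain means is lower. Plain lists of replicates give replicates in the order of their numbers, which for E12 are 1, 2 and 4 and for P0 are 1, 3 and 4. Errors after ± are standard deviations.

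Members and lists were chosen with earlier results of these data known. Named were all members, up to 4 genes of a list with the largest called change (or 2 of the highest mean), and the 10 genes most like the members. Orc5, Orc6, Rrm2b, Myc and the markers named were added where a count called for them. The arrays' number limits precision, and nothing says that they came from separate animals, so the p-values speak to the spread among these samples, which may be technical. Alternatives covered floor, filter, normalization, GAPDH ratio, array weights, replicate and lot blocks, and left-out arrays. Motifs were read from RefSeq promoters.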

Additional observations from a re-analysis of the deposited data

How the results depend on the processing

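No member call changed direction under the 28 alternatives, and of 42 member calls in the 9 tests, 30 were kept under all of them. With the GAPDH 3'/5' signal as a covariate, 4 member probe sets were called in place of 7 for E12 against E9.5 and 4 in place of 8 for P0 against E12. For P0 against E9.5, 9 were called in place of 10. Over the 5 nerve stages the covariate raised the count from 7 to 10, where 15.1% of all probe sets were called. With array weights, 1 was called for E14 against E12, 1 for E16 against E14, 2 for E18 against E16 and 7 for P0 against E18, where 0 were called without weights; the cause was not tested. Leaving out each array in turn gave 4 to 7 calls for E12 against E9.5, 5 to 10 for P0 against E12, 0 to 4 for P0 against E18, 10 to 12 for P0 against E9.5 (the 2 added calls, Mcm6 and Mcm5 by 162102_r_at, were higher at P0), 9 to 10 over all 6 stages and 4 to 9 over the 5 nerve stages, with fewer arrays in each fit. Same-numbered arrays of different stages had a mean correlation of 0.022 in their deviations from stage means, against -0.008 for other pairs. These correlations ran from -0.38 to 0.71, 15 of 38 pairs were over 0.1, and 6 of 19 arrays were closest to their own number. For arrays of the same lot the mean was 0.042, against -0.015 for other pairs. There 16 of 39 pairs were over 0.1, and 9 of 19 arrays were closest to their own lot. Whether either number pairs the arrays was not tested. With the replicate block, 1 member was called for P0 against E18 (0.384% of all probe sets). For E12 against E9.5 and P0 against E12, 9 each were called (14.4% and 18% of all). Over the 5 nerve stages 9 were called (15.9% of all). With the lot block, 0 were called for P0 against E18 (0.173% of all). The lot block gave 9 each for E12 against E9.5 and P0 against E12 (14.9% and 17.4% of all). It gave 10 over the 5 nerve stages (15.1% of all). The other Mcm5 probe set in the search for like genes, and the array medians without the 3 probe sets not called over the stages, were added after seeing the data. Mcm6 and the second Rrm1 probe set lie near the floor, so their changes are limited by signal over background.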

Other observations

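When the 3 probe sets not called over the stages were left out, the median log2 deviation of the remaining 10 ran from 1.13 to 1.59 at E9.5, -0.14 to 0.57 at E12, -0.05 to 0.02 at E14, -0.36 to 0.46 at E16, -0.59 to -0.29 at E18 and -1.64 to -0.62 at P0. These 10 were chosen by their own changes, so the values are a description. Of 16 mitosis genes, 14 fell between E9.5 and P0, where 15.9% of all probe sets tested were called lower and 28% in either direction.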
